A study of Rattus norvegicus with 138 samples.

Results

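The genes described here encode lysosomal hydrolases, proteins of the lysosomal membrane and subunits of the vacuolar proton pump. They were taken as a fixed list of 33 symbols, cathepsins left out, and 33 of the 33 were present among the 16181 symbols of the expression table. By role they comprise 6 subunits of the V0 sector of the pump, 7 of the V1 sector, 2 accessory proteins of the pump, 6 lysosomal membrane proteins, 9 hydrolases and 3 soluble proteins without hydrolase activity of their own. All 33 passed the filter on low values and were tested, 1 of them, Atp6v0d2, only through the injured groups in which it was measured above 0.

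Lysosomes are the acidic compartments in which cells break down engulfed debris, worn-out organelles and stored glycogen and lipid. The V-ATPase keeps them acidic: its cytosolic V1 sector hydrolyses ATP, and its membrane-embedded V0 sector carries the protons across. Soluble hydrolases act inside, glycosylated membrane proteins line and protect the lysosome, and transporters and channels export its products. Macrophages, which enter injured muscle to clear dead fibres, are rich in lysosomes, whereas muscle fibres hold comparatively few.

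Volumetric muscle loss (VML) is the removal of more muscle than a limb can regrow. The study made a VML defect in the tibialis anterior (TA) muscle of 1 leg of male Lewis rats of about 4 months with a punch biopsy, left it non-repaired or filled it with an autologous minced muscle graft (MMG), and sequenced RNA of whole TA muscles at 3, 7, 14 and 28 days post injury (DPI). Some rats are labelled as running. Controls were TA muscles of unoperated rats, which the labels call sham at day 0, and contralateral muscles were the opposite TA of operated rats.

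After quality filtering, control muscles numbered 4, from the 2 legs of 2 rats. Non-repaired, non-running rats gave 3, 8, 4 and 4 injured muscles at 3, 7, 14 and 28 DPI and 2, 4, 2 and 2 contralateral muscles. MMG-repaired, non-running rats gave 7, 8, 4 and 4 injured and 2, 6, 2 and 2 contralateral muscles on those days. Running rats gave 8, 4, 4 and 2 injured muscles without repair and 6, 4, 4 and 2 with MMG, and 2 contralateral muscles for each repair group at 3, 7 and 14 DPI. The names of the control rats begin with TS4 and those of the operated rats with TS5. What the prefix marks is not given in the sources used here, and prefix and injury cannot be told apart in a comparison with control. The contralateral muscles share the prefix of the injured ones but come from operated animals.

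Values are TPM, an abundance per transcript length scaled to a fixed total in each library, so levels of different genes can be set side by side. Differences are on the log2(TPM + 1) scale from limma, with Benjamini-Hochberg adjustment over all 11328 genes tested, and a gene was called higher or lower where the adjusted p was below 0.05 and the difference exceeded 1 in log2. Because TPM is a share of a fixed total, a change in abundant transcripts moves the values of all others. The summed TPM of 10 muscle fibre markers was 207300 to 270300 in control and 41290 to 55760 in non-repaired injured muscle at 3 DPI. The median tested gene stood 0.96, 0.92, 0.53 and 0.52 above control at 3, 7, 14 and 28 DPI. Rescaling by median-of-ratios size factors brought that median to 0.09, 0.08, 0.02 and 0.04, and counts under that scaling are given beside those on TPM.

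Promoter sequences of 26 of the 33 genes were matched by symbol in a RefSeq table of rat promoters (build GRCr8, 250 bases before and 50 after the start site used by the table). They were searched on both strands for TCACGTGA, the central letters of the element that Tfeb, a transcription factor of lysosomal genes, binds, and for CACGTG, which lies within it. TCACGTGA was present in 4 of the 26 promoters (15.4%) and in 0.777% of all 33469 promoters of the table. CACGTG was present in 6 of the 26 (23.1%) and in 6.42% of all promoters. TCACGTGA began 66 and 39 bases before the start in Lamp1, 53 bases before it in Atp6v0d1, 3 bases past it in Mcoln1 and 23 bases past it in Atp6v0e1. CACGTG without the flanking letters began 100 bases before the start in Glb1, 67 bases before it in Gaa and 22 bases before it in Mcoln1, and occurred 3 more times in Lamp1, at 183, 167 and 150 bases before the start. The windows printed here run from 120 bases before the start through 12 bases from it, 5′ to 3′ along the gene, with the matched letters in capitals, and are shown because these 5 genes differed widely after injury: Glb1 had the largest difference of the hydrolases at 3 DPI, and Gaa and Mcoln1 were not called higher than control at any day. A match is a stretch of letters and no measure of binding, which these data do not hold.
Lamp1 (chr16:83075052-83075183, minus strand): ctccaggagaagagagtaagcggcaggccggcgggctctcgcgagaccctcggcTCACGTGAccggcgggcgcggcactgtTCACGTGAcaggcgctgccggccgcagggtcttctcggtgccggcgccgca
Atp6v0d1 (chr19:50357237-50357368, minus strand): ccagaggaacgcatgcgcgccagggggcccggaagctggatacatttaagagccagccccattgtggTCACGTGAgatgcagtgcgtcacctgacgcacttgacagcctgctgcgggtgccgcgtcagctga
Mcoln1 (chr12:6358138-6358269, plus strand): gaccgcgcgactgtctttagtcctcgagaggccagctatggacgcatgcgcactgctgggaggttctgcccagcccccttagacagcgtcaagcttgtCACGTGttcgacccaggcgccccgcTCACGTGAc
Glb1 (chr8:122963598-122963729, plus strand): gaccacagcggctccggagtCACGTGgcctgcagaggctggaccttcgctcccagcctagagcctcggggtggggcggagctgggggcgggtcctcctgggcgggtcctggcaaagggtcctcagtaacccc
Gaa (chr10:105028235-105028366, plus strand): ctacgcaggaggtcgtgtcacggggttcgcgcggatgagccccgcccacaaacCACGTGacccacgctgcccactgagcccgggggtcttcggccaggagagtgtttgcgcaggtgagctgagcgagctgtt

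Against control, members of the set were called higher in non-repaired injured muscle at every day tested, most at 3 DPI. Of the 33 genes, 25 were called higher at 3 DPI, which is 75.8% of them against 48.3% of all tested genes. The counts were 18 for 7 DPI (54.5%, all genes 45.6%), 8 for 14 DPI (24.2%, all genes 25%) and 8 for 28 DPI (24.2%, all genes 21.1%). No member was called lower, where 4.24%, 2.42%, 0.547% and 0.212% of all genes were. Without the fold limit 31, 31, 24 and 26 members passed the adjusted p, as did 85.2%, 88.2%, 72.3% and 71.8% of all genes, all of those members higher but for Gaa and Atp6v1f at 14 DPI. Without Atp6v0d2, which passed the filter only through the injured groups, the counts were 25, 17, 8 and 8 of 32 genes (78.1%, 53.1%, 25% and 25%), so that on TPM the share of called members stood above that of all genes at 3 and 7 DPI and near it at 14 and 28 DPI. The members' median difference was 1.72, 1.22, 0.45 and 0.55, beside the 0.96, 0.92, 0.53 and 0.52 of all genes. Without that gene the median was 1.76, 1.16, 0.56 and 0.54, so that the place of the members at 14 DPI, under or over that of all genes, turned on this 1 gene. Their summed TPM went from 2119 to 2554 over the 4 control muscles to 5885 to 7558 at 3 DPI, 3704 to 5849 at 7 DPI, 2834 to 3257 at 14 DPI and 2985 to 3497 at 28 DPI. At each of the 4 days the lowest injured sum lay above the highest control sum. For 31, 27, 22 and 25 members every injured muscle was above all 4 control muscles, as for 69.9%, 66%, 58.9% and 60.2% of all tested genes. These 4 comparisons share the same 4 control muscles.

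With size factors, 12, 9, 4 and 4 members were called higher than control at 3, 7, 14 and 28 DPI, each of which was also called on TPM, and 8, 16, 18 and 18 members had a difference below 0. Of all genes 24.5%, 21.9%, 15.8% and 11.5% were called higher under that scaling, beside 36.4%, 27.3%, 12.1% and 12.1% of the members, or 37.5%, 25%, 12.5% and 12.5% of the 32 without Atp6v0d2. The members below 0 at 3 DPI were Atp6v1d, Atp6v1e1, Atp6v1f, Gaa, Laptm4a, Mcoln1, Psap and Scarb2, and at 7 DPI Atp6v0a1, Atp6v0b, Atp6v0c, Atp6v1b2, Atp6v1c1, Lamp1, Npc1 and Tpp1 were below 0 as well. Size factors ended the calls of 13 members at 3 DPI (Atp6ap1, Atp6v0a1, Atp6v0b, Atp6v0c, Atp6v0d1, Atp6v1b2, Atp6v1c1, Atp6v1h, Gla, Lamp1, Laptm4a, Npc1 and Tpp1) and of 9 at 7 DPI (Asah1, Atp6ap1, Atp6v0d1, Atp6v0e1, Atp6v1a, Atp6v1h, Gla, Laptm4a and Lipa). Among all called genes the share that was higher went from 91.9%, 95.0%, 97.9% and 99.0% on TPM to 59.2%, 60.6%, 72.8% and 78.4%. The members' median difference was then 0.57, 0.23, -0.03 and -0.12, and without Atp6v0d2 it was 0.65, 0.08, -0.12 and -0.12, so that at 7 DPI it stood at the 0.08 of all genes. Glb1, Grn, Gusb and Man2b1 were called higher than control at all 4 days under both scalings. Asah1, Atp6ap2, Atp6v0e1, Atp6v1a, Hexa, Lamp2, Lipa and Npc2 completed the list at 3 DPI. Of those, Atp6ap2, Hexa, Lamp2 and Npc2 were called under both scalings at 7 DPI too, joined by Atp6v0d2.

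Contralateral muscle of the same days was the second reference. Against it 18 members were called higher at 3 DPI (54.5%, all genes 32.3%). On the later days the counts were 18 (54.5%, all genes 45.3%), 7 (21.2%, all genes 20.9%) and 4 (12.1%, all genes 13.1%). None was called lower, where 5.92%, 2.01%, 0.168% and 0.212% of all genes were. The adjusted p alone was passed by 28, 32, 21 and 17 members and by 71.9%, 88.3%, 63.7% and 49.7% of all genes, 1 of those members, Gaa at 3 DPI, lower. Members' medians were 1.04, 1.10, 0.44 and 0.47, beside 0.54, 0.91, 0.50 and 0.38 of all tested genes. With size factors they were 0.48, 0.09, -0.14 and 0.02, without Atp6v0d2 0.53, 0.04, -0.16 and -0.04, beside 0.05, 0.06, 0 and 0.02 of all genes, and 7, 16, 19 and 16 members lay below 0. Under that scaling 14, 8, 4 and 3 members were called higher, against 20.7%, 18.7%, 10.5% and 7.22% of all genes, 1 was called lower at 3 DPI (13.5% of all genes), and the share of all called genes that was higher went from 84.5%, 95.8%, 99.2% and 98.4% to 60.4%, 59.3%, 73.5% and 82.7%. Glb1, Grn and Gusb were called higher than contralateral muscle at all 4 days under both scalings.

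Markers of cell types, read on TPM, moved with these differences. All 17 macrophage and monocyte markers were called higher than control at each of the 4 days, and none was at 0 in any of these groups. Their summed TPM was 46.2 to 84.2 in control, 174 and 447 in the 2 contralateral muscles at 3 DPI, and in injured muscle 7929 to 11170 at 3 DPI, 1464 to 5783 at 7 DPI, 895 to 1098 at 14 DPI and 519 to 1748 at 28 DPI. Of 10 muscle fibre markers, 10, 6, 3 and 1 were called lower than control on those days. All 7 fibroblast and matrix markers were called higher than control on each day. The 7 endothelial markers gave 4, 5, 3 and 2 called higher, the 5 tested neutrophil markers 5, 4, 2 and 0, and the 5 tested osteoclast markers 5, 5, 3 and 3. Of all tested genes 48.3%, 45.6%, 25% and 21.1% were called higher than control and 4.24%, 2.42%, 0.547% and 0.212% lower. No marker counts with size factors are given. The part of these cell types in the lysosomal differences was not tested, and in bulk tissue more or fewer cells of a type and more or less RNA per cell cannot be told apart.

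**Figure D1:**
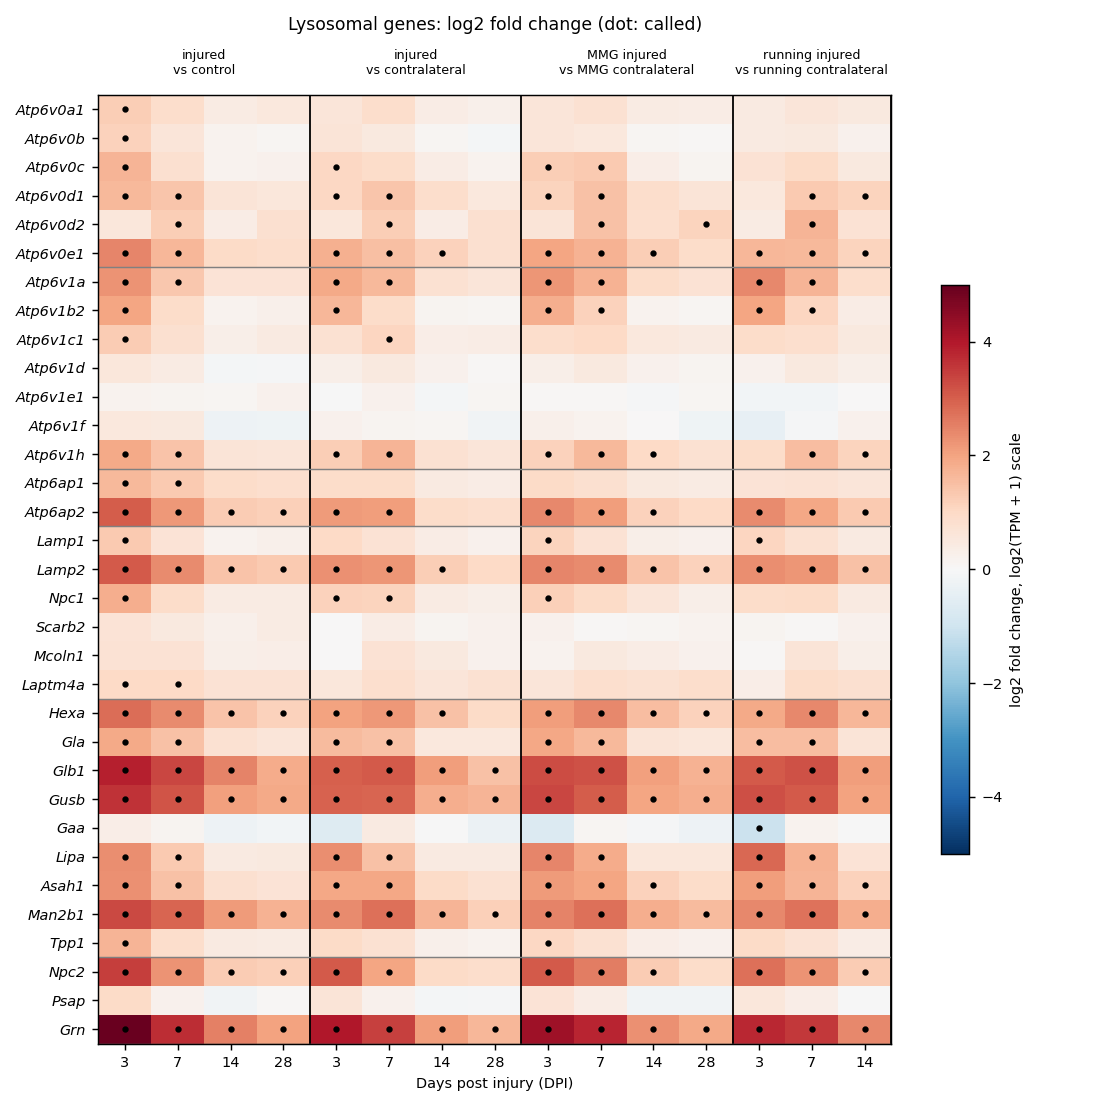
Heat map of the log2 fold change, on the log2(TPM + 1) scale, of the 33 genes (rows, by role) at each DPI (columns) for injured muscle against control, against contralateral muscle, with MMG and with running, a dot marking each gene called. Grn held the largest values (4.93 against control and 4.004 against contralateral muscle at 3 DPI), and the median tested gene stood 0.96 above control at 3 DPI on this scale, falling to 0.09 with size factors.

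Counts by role, here and below, stand beside 48.3%, 45.6%, 25% and 21.1% of all tested genes called higher than control over the 4 days. With size factors those shares were 24.5%, 21.9%, 15.8% and 11.5%, and against contralateral muscle on TPM 32.3%, 45.3%, 20.9% and 13.1%. Of the 6 genes of the V0 sector of the pump, 5 were called higher than control at 3 DPI, 3 at 7 DPI and none on later days. With size factors the counts were 1, 1, 0 and 0, and 0, 3, 4 and 4 members lay below 0. Against contralateral muscle the counts were 3, 3, 1 and 0. One of the calls at 7 DPI is in each case Atp6v0d2, which passed the filter only through the injured groups, and without it 2 V0 genes were called at 7 DPI on TPM against either reference and 0 with size factors. Atp6v0e1, the small e subunit, was measured at 23.5, 30.7, 34.5 and 36.2 TPM in the control muscles and at 40.1 and 59.4 in the contralateral muscles at 3 DPI. In injured muscle it was at 150, 168 and 195 TPM at 3 DPI, had a lowest, median and highest value of 72.3, 98.9 and 148 at 7 DPI, and lay between 58.1 and 66.2 at 14 DPI and between 55.8 and 59.7 at 28 DPI. Each injured muscle was above all control muscles, and the highest contralateral muscle at 3 DPI reached the level of injured muscle at 14 and 28 DPI. Against control Atp6v0e1 differed by 2.43 (SE 0.181, adjusted p = 5.41e-22) at 3 DPI and by 1.66 (SE 0.145, adjusted p = 1.86e-18) at 7 DPI. Against contralateral muscle the difference of Atp6v0e1 was 1.78 (SE 0.216, adjusted p = 1.13e-11) and 1.51 (SE 0.145, adjusted p = 2.31e-16).

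Atp6v0c, which forms most of the rotating proteolipid ring, was among the most abundant pump transcripts in control muscle, at 123.7, 124.2, 135.2 and 160.1 TPM, and reached 385, 401 and 576 at 3 DPI. Its difference from control was 1.72 (SE 0.180, adjusted p = 1.05e-14) at 3 DPI. By 14 DPI Atp6v0c was at 138.6 to 161 TPM, a range that overlapped control. Atp6v0d1, the widely used d subunit that joins the ring to the central stalk, was at 45.8 to 49.8 TPM in control and at 126.8, 147 and 174 at 3 DPI, and injured muscle remained above every control muscle at 28 DPI (63.7 to 80.03). Against contralateral muscle Atp6v0d1 differed by 1.04 (SE 0.150, adjusted p = 2.86e-09) at 3 DPI and by 1.38 (SE 0.101, adjusted p = 1.42e-22) at 7 DPI, and against control at 7 DPI by 1.37 (SE 0.101, adjusted p = 1.59e-22).

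Atp6v0b, another subunit of the ring, and Atp6v0a1, an isoform of the large subunit that lines the proton path, moved less. Atp6v0b was at 72.5 to 79.9 TPM in control and 152 to 212 at 3 DPI, and of the V0 genes it had the smallest difference at 7 DPI, 0.62 (SE 0.103, adjusted p = 7.35e-08) against control and 0.50 (SE 0.103, adjusted p = 7.86e-06) against contralateral muscle, under the fold limit in both. With size factors both turned, to -0.46 (adjusted p = 0.000143) and -0.59 (adjusted p = 2.62e-06) in limma. Atp6v0a1 was at 13.5 to 22.9 TPM in control, 43.4 to 50.9 in injured muscle at 3 DPI and 27.6 to 28.5 at 28 DPI, with a difference from control of 1.23 at 3 DPI.

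Atp6v0d2, the d isoform known from osteoclasts and fused macrophages, stood apart from the other members. It was listed at 0 in all 4 control muscles and in all 10 contralateral muscles of non-repaired, non-running rats. Injured muscles held 0.28, 0.35 and 0.94 TPM at 3 DPI, a lowest, median and highest value of 0.20, 0.87 and 4.61 at 7 DPI, 0.18 to 0.37 at 14 DPI, and 0.15, 0.24, 0.38 and 3.66 at 28 DPI. So every injured muscle was above 0, at levels far below those of Atp6v0d1. No fold is given against groups at 0. On the log2(TPM + 1) scale the difference of Atp6v0d2 from either reference was 0.58 at 3 DPI and 1.22 at 7 DPI. Because it entered the test only through the groups in which it was high, its call at 7 DPI is given as a description. It is 1 of the calls in the member counts of that day. Without Atp6v0d2, 17 members were called higher than control at 7 DPI on TPM and 8 with size factors, and 17 and 7 were called higher than contralateral muscle.

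Of the 7 V1 genes 4 were called higher than control at 3 DPI, 2 at 7 DPI and none on later days (1, 0, 0 and 0 after size factors, which put 3, 5, 6 and 6 below 0), and 3, 3, 0 and 0 were called higher than contralateral muscle. Atp6v1a encodes the catalytic A subunit. It was at 6.38, 11.6, 11.98 and 12.6 TPM in control, 12.6 and 14.4 in contralateral muscle at 3 DPI, and 48.6, 55.1 and 56.8 in injured muscle at 3 DPI. At 7 DPI its lowest, median and highest values were 18.9, 28.7 and 41.7 TPM, and at 28 DPI the 4 injured muscles lay between 16.1 and 20.9. The injured muscles did not overlap control at any of these days. Against control Atp6v1a differed by 2.27 (SE 0.183, adjusted p = 3.48e-20) at 3 DPI and by 1.33 (SE 0.146, adjusted p = 7.59e-14) at 7 DPI. Against contralateral muscle the difference of Atp6v1a was 1.91 (SE 0.218, adjusted p = 1.09e-12) and 1.62 (SE 0.146, adjusted p = 1.11e-17).

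Atp6v1b2, the B subunit that pairs with A, followed at 3 DPI. It was at 23.7 to 34.95 TPM in control, at 104.4, 106.2 and 152.3 at 3 DPI, and at 32.2 to 43.6 at 28 DPI, where it overlapped control. Its difference was 1.95 (SE 0.162, adjusted p = 1.26e-19) from control and 1.64 (SE 0.193, adjusted p = 3.15e-12) from contralateral muscle at 3 DPI. Atp6v1h, a regulatory subunit that couples V1 to V0, had the largest V1 difference at 7 DPI, 1.41 (SE 0.117, adjusted p = 1.09e-19) from control and 1.69 (SE 0.117, adjusted p = 9.67e-24) from contralateral muscle, with injured muscles at 42.6 to 58.7 TPM and control at 13.4 to 21.4. Atp6v1c1, the C subunit that governs assembly of the sectors, was called higher than control at 3 DPI (1.28 on TPM, with 73.4 to 82.6 TPM against 22.8 to 38.1) and than contralateral muscle at 7 DPI (1.06 on TPM, -0.01 with size factors). With size factors Atp6v1c1 stood at 0.16 from control at 3 DPI and at -0.25 (adjusted p = 2.44e-05) at 7 DPI, and neither was called.

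The remaining V1 genes encode stalk subunits and were not called in injured muscle at any day against either reference. Atp6v1e1, of the peripheral stalk, was at 83.2, 139.3, 157 and 159 TPM in control, 147 and 154 in contralateral muscle at 3 DPI and 141.6, 149.6 and 156.5 in injured muscle at 3 DPI. Injured and uninjured values of Atp6v1e1 overlapped. Its difference at 3 DPI was 0.19 (SE 0.109, adjusted p = 0.0911) from control and -0.01 (SE 0.130, adjusted p = 0.945) from contralateral muscle, and at 7 DPI 0.13 (SE 0.0871, adjusted p = 0.148) from control. Atp6v1f, of the central stalk, had the smallest difference from contralateral muscle at 7 DPI on TPM, 0.16 (SE 0.0944, adjusted p = 0.115), and with size factors the lowest of any member, -0.94 (adjusted p = 1.25e-12), with injured muscles at 145 to 269 TPM and contralateral muscles at 180 to 258. Atp6v1d, also of the central stalk, was at 91.3 to 96.2 TPM in control and 140.1 to 142.8 at 3 DPI, a difference of 0.58 that stayed under the fold limit. With size factors Atp6v1d stood at -0.56, Atp6v1e1 at -0.95 and Atp6v1f at -0.64 from control at 3 DPI.

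The 2 accessory proteins bind the V0 sector and help its assembly, and both were called higher than control at 3 and 7 DPI, Atp6ap2 alone with size factors. Atp6ap2, also known as the prorenin receptor, was at 5.1, 9.71, 10.9 and 12.1 TPM in control, 15.1 and 20.3 in contralateral muscle at 3 DPI, and 70.9, 80.7 and 91.1 in injured muscle at 3 DPI. It had a lowest, median and highest value of 31.1, 45.0 and 63.2 at 7 DPI and was at 18.7 to 30.0 at 28 DPI. All injured muscles stood above all control muscles. The difference of Atp6ap2 from control was 3.02 (SE 0.212, adjusted p = 1.77e-23) at 3 DPI and 2.15 (SE 0.170, adjusted p = 1.09e-20) at 7 DPI. On TPM it was called at 14 and 28 DPI as well (1.26 and 1.203), but not with size factors (0.63 and 0.59). From contralateral muscle Atp6ap2 differed on TPM by 2.14 (SE 0.254, adjusted p = 4.72e-12) and 2.08 (SE 0.170, adjusted p = 7.09e-20) at 3 and 7 DPI.

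Atp6ap1 (Ac45) was at 23.9, 52.8, 61.4 and 66.7 TPM in control and 128.9, 152 and 164 at 3 DPI, with differences from control of 1.60 (SE 0.133, adjusted p = 1.41e-19) at 3 DPI and 1.30 (SE 0.106, adjusted p = 6.31e-20) at 7 DPI. Against contralateral muscle Atp6ap1 differed by 0.90 (SE 0.159, adjusted p = 5.15e-07) and 0.93 (SE 0.106, adjusted p = 4.02e-13), under the fold limit. With size factors these were 0.33 and -0.15 (adjusted p = 0.00672 for the latter), so that the direction turned at 7 DPI. Among the 15 pump genes Atp6ap2 had the largest log2 difference from control at each of the 4 days on TPM.

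Of the 6 membrane proteins, 4, 2, 1 and 1 were called higher than control at 3, 7, 14 and 28 DPI, and 2, 2, 1 and 0 than contralateral muscle. With size factors 1, 1, 0 and 0 were called higher than control, Lamp2 at 3 and 7 DPI, and 3, 5, 4 and 4 lay below 0. Lamp2, a glycoprotein that lines the membrane and takes part in autophagy, was called higher than control at all 4 days on TPM. It was at 12.8, 26.5, 27.6 and 27.8 TPM in control and at 33.4 and 47.9 in contralateral muscle at 3 DPI. Injured muscles held 189, 204 and 206 TPM of Lamp2 at 3 DPI, a lowest, median and highest of 90.03, 123 and 172 at 7 DPI, 56.7 to 70.4 at 14 DPI and 49.5 to 71.6 at 28 DPI. No injured muscle overlapped control or the contralateral muscles of its day. Against control Lamp2 differed by 3.08 (SE 0.170, adjusted p = 8.32e-30) at 3 DPI and 2.35 (SE 0.136, adjusted p = 1.38e-28) at 7 DPI, and by 1.42 and 1.33 at 14 and 28 DPI. Against contralateral muscle it differed by 2.29 (SE 0.203, adjusted p = 2.02e-17) and 2.19 (SE 0.136, adjusted p = 1.73e-26).

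Lamp1, the other major membrane glycoprotein, was far more abundant and moved less. It was at 282, 321, 325 and 333 TPM in control, 357 and 423 in contralateral muscle at 3 DPI, and 700, 792 and 850 in injured muscle at 3 DPI, a difference from control of 1.30 that was called on TPM. With size factors the difference of Lamp1 was 0.16 (adjusted p = 0.0990) at 3 DPI and not called, and at 7 DPI it stood at -0.41 (adjusted p = 1.92e-07). At 14 DPI Lamp1 was at 330 to 392 TPM, overlapping control. Lamp2 therefore made up more of the pair after injury. As a share of the TPM of Lamp1 and Lamp2 together, Lamp2 was 4.35% to 7.92% in control, 5.80% to 10.2% in the contralateral muscles, 19.5% to 21.3% in injured muscle at 3 DPI, 15.3% to 24.5% at 7 DPI, 14.1% to 15.5% at 14 DPI and 11.99% to 14.85% at 28 DPI. Every injured muscle of this arm stood above every control and contralateral one, and a share within a library does not depend on the scaling.

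A second pair of isoforms was read in the same way, Atp6v0a1 and Tcirg1, the a-subunit isoform known from osteoclasts and immune cells, which is not among the 33 genes. Tcirg1 made up 27.8% to 32.7% of the TPM of the pair in control, 66.6% to 73.5% at 3 DPI, 38.5% to 68.5% at 7 DPI, 42.0% to 45.0% at 14 DPI and 33.04% to 57.9% at 28 DPI. At each of those days every injured muscle was above the 4 control muscles. The contralateral muscles of this arm held 26.7% to 33.7%, so that the highest of them lay above the lowest injured muscle at 28 DPI.

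**Figure D2:**
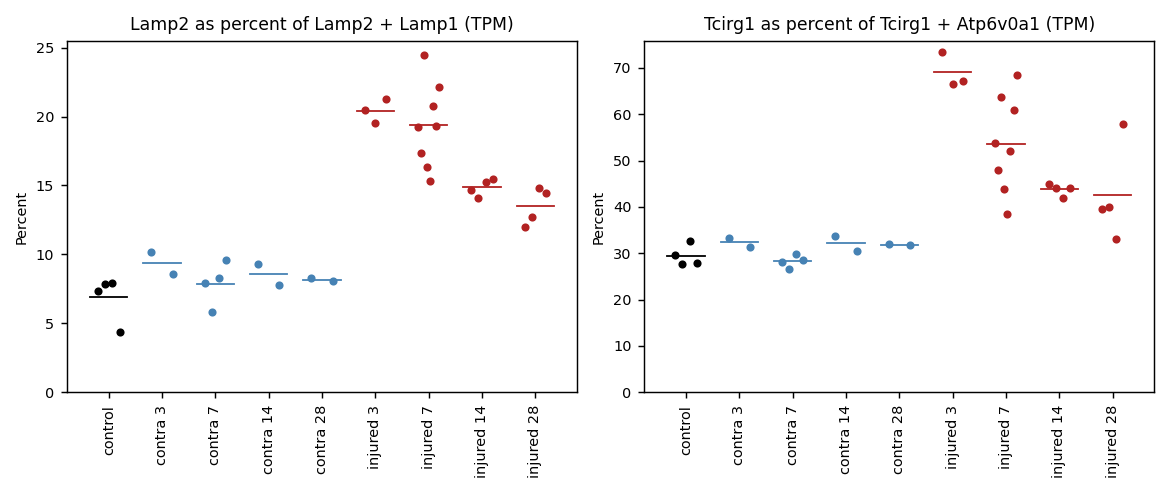
Share in percent of Lamp2 in the summed TPM of Lamp1 and Lamp2 (left) and of Tcirg1 in that of Tcirg1 and Atp6v0a1 (right), 1 point per muscle, bars at the group mean, for control, contralateral and non-repaired injured muscle by DPI. Lamp2 averaged 6.88% in control and 20.4% in injured muscle at 3 DPI, and 13.5% at 28 DPI.

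Npc1, which exports cholesterol from the lysosome, was at 7.77 to 11.1 TPM in control and 32.5, 37.7 and 40.9 at 3 DPI. Its difference was 1.81 (SE 0.126, adjusted p = 1.41e-23) from control and 1.15 (SE 0.151, adjusted p = 1.60e-10) from contralateral muscle at 3 DPI, and 1.10 (SE 0.101, adjusted p = 2.70e-17) from contralateral muscle at 7 DPI. Laptm4a, a membrane protein with several spans, was at 261 to 300 TPM in control and 494 to 690 at 7 DPI, where it differed from control by 1.01 (SE 0.0830, adjusted p = 7.58e-20). That call depended on the scaling, since Laptm4a stood at -0.14 and -0.08 from control at 3 and 7 DPI with size factors.

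Scarb2 (LIMP-2), the carrier of glucocerebrosidase, and Mcoln1, a cation channel that releases calcium, were not called at any day against either reference. Scarb2 was at 36.9, 68.2, 73.9 and 75.2 TPM in control and 77.9, 100.7 and 118.7 at 3 DPI, a difference of 0.67 (SE 0.161, adjusted p = 0.000117), and 0.49 (SE 0.129, adjusted p = 0.000372) at 7 DPI. With size factors Scarb2 turned to -0.47 (adjusted p = 0.00106) and -0.59 (adjusted p = 7.18e-07) from control on those days. The contralateral muscles at 3 DPI held 82 and 112.3 TPM of Scarb2, within the range of injured muscle, and at 7 DPI the difference from contralateral muscle was 0.36 (SE 0.129, adjusted p = 0.00770). Mcoln1 was at 12.6 to 16.8 TPM in control, 23.7 and 27.4 in contralateral muscle and 24.2, 26.1 and 27.1 in injured muscle at 3 DPI, so that on TPM it differed from contralateral muscle by 0.02 (SE 0.112, adjusted p = 0.896). With size factors that difference of Mcoln1 was -0.54 (adjusted p = 1.16e-07). The Mcoln1 promoter is among the windows printed above, as is that of Lamp1.

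The hydrolases, the largest role of the list, held the most called genes. Of the 9, 8 were called higher than control at 3 DPI, 7 at 7 DPI and 4 at 14 and at 28 DPI, and 7, 7, 4 and 3 were called higher than contralateral muscle. With size factors 6, 4, 3 and 3 were called higher than control and 1, 2, 3 and 3 lay below 0. Glb1 encodes beta-galactosidase, the enzyme behind the common stain for senescent cells. It was at 1.41, 2.15, 2.55 and 2.68 TPM in control and 3.85 and 6.15 in contralateral muscle at 3 DPI. Injured muscles held 36.2, 47.4 and 54.0 TPM of Glb1 at 3 DPI, a lowest, median and highest of 17.6, 33.7 and 48.0 at 7 DPI, 14.9 to 18.8 at 14 DPI and 8.75 to 13.9 at 28 DPI. The lowest injured muscle of any day was above the highest uninjured one. From control Glb1 differed by 3.87 (SE 0.240, adjusted p = 1.29e-26) at 3 DPI and 3.33 (SE 0.193, adjusted p = 1.61e-28) at 7 DPI. From contralateral muscle it differed by 2.97 (SE 0.287, adjusted p = 1.10e-15) and 3.07 (SE 0.193, adjusted p = 3.88e-26). In mean TPM the ratio of injured muscle to control was 20.9, 14.7, 7.55 and 4.76 over the 4 days. With size factors the log2 difference of Glb1 from control was 2.945, 2.46, 1.99 and 1.37, smaller at 3 and 7 DPI than the TPM differences above.

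Gusb, beta-glucuronidase, which removes glucuronic acid from glycosaminoglycans, ran close to Glb1. It was at 1.57, 2.38, 2.5 and 3.03 TPM in control, 3.93 and 4.86 in contralateral muscle at 3 DPI and 32.5, 41.6 and 47.8 in injured muscle at 3 DPI. At 28 DPI the injured muscles held 8.06, 9.11, 9.46 and 23.3 TPM, 1 of them standing above the rest. Control and injured muscles did not overlap. The difference of Gusb from control was 3.63 (SE 0.254, adjusted p = 1.53e-23) at 3 DPI and 3.15 (SE 0.204, adjusted p = 1.33e-25) at 7 DPI. From contralateral muscle it was 2.94 (SE 0.304, adjusted p = 2.19e-14) and 2.91 (SE 0.204, adjusted p = 1.98e-23). With size factors Gusb differed from control by 2.69 at 3 DPI and 2.27 at 7 DPI.

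Man2b1 and Hexa, which trim mannose and hexosamine residues from glycans and glycolipids, were called higher than control at all 4 days on TPM. Man2b1 was at 3.66 to 9.07 TPM in control, 57.3 to 76.0 at 3 DPI and 19.8 to 28.0 at 28 DPI, with differences from control of 3.28, 2.91, 2.11 and 1.73 over the 4 days. Hexa was at 17.9 to 21.8 TPM in control, 133.8 to 159 at 3 DPI and 42.2 to 56.7 at 28 DPI, with differences from control of 2.80, 2.37, 1.44 and 1.16. Lipa, which hydrolyses cholesteryl esters and triglycerides, and Asah1, acid ceramidase, were called higher than control at 3 and 7 DPI and not at 14 or 28 DPI. Lipa was at 12.2 to 16.9 TPM in control, 73.8 to 87.97 at 3 DPI and 17.7 to 33.5 at 28 DPI, and Asah1 was at 12.8 to 21.6 in control, at least 84.6 at 3 DPI and 25.2 to 36.9 at 28 DPI. Differences from control at 3 and 7 DPI were 2.33 and 1.33 for Lipa and 2.30 and 1.46 for Asah1. Gla, alpha-galactosidase A, was low throughout, at 2.75 to 4.88 TPM in control and 15.96 to 21.2 at 3 DPI, and differed from control by 1.90 at 3 DPI. Tpp1, a peptidase that removes tripeptides from protein ends, was at 27.3 to 47.6 TPM in control and 124.7 to 139.5 at 3 DPI, and differed from control by 1.70 at 3 DPI and 0.87 at 7 DPI, or 0.57 and -0.20 with size factors.

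Gaa, acid alpha-glucosidase, which degrades lysosomal glycogen and is the enzyme lacking in Pompe disease, was the 1 hydrolase not called higher than control at any day. It was at 60.7, 76.5, 79.3 and 86.5 TPM in control, 136.7 and 158.2 in contralateral muscle at 3 DPI, and in the 3 injured muscles at 3 DPI its mean was 95.1 ± 12.2 TPM (SD, n = 3), with a lowest value of 82.6 and a median of 95.7. All 3 injured muscles lay below both contralateral muscles of that day, and they overlapped control. The difference of Gaa at 3 DPI was 0.33 (SE 0.129, adjusted p = 0.0152) from control and -0.63 (SE 0.154, adjusted p = 0.000183) from contralateral muscle, both within the fold limit on TPM. With size factors the former turned to -0.81 (adjusted p = 8.67e-08) and the latter was -1.203 and called. At 7 DPI Gaa differed from control by 0.12 (SE 0.103, adjusted p = 0.257) and from contralateral muscle by 0.44 (SE 0.103, adjusted p = 6.70e-05), which size factors turned to -0.96 (adjusted p = 2.59e-13) and -0.64 (adjusted p = 1.16e-07).

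**Figure D3:**
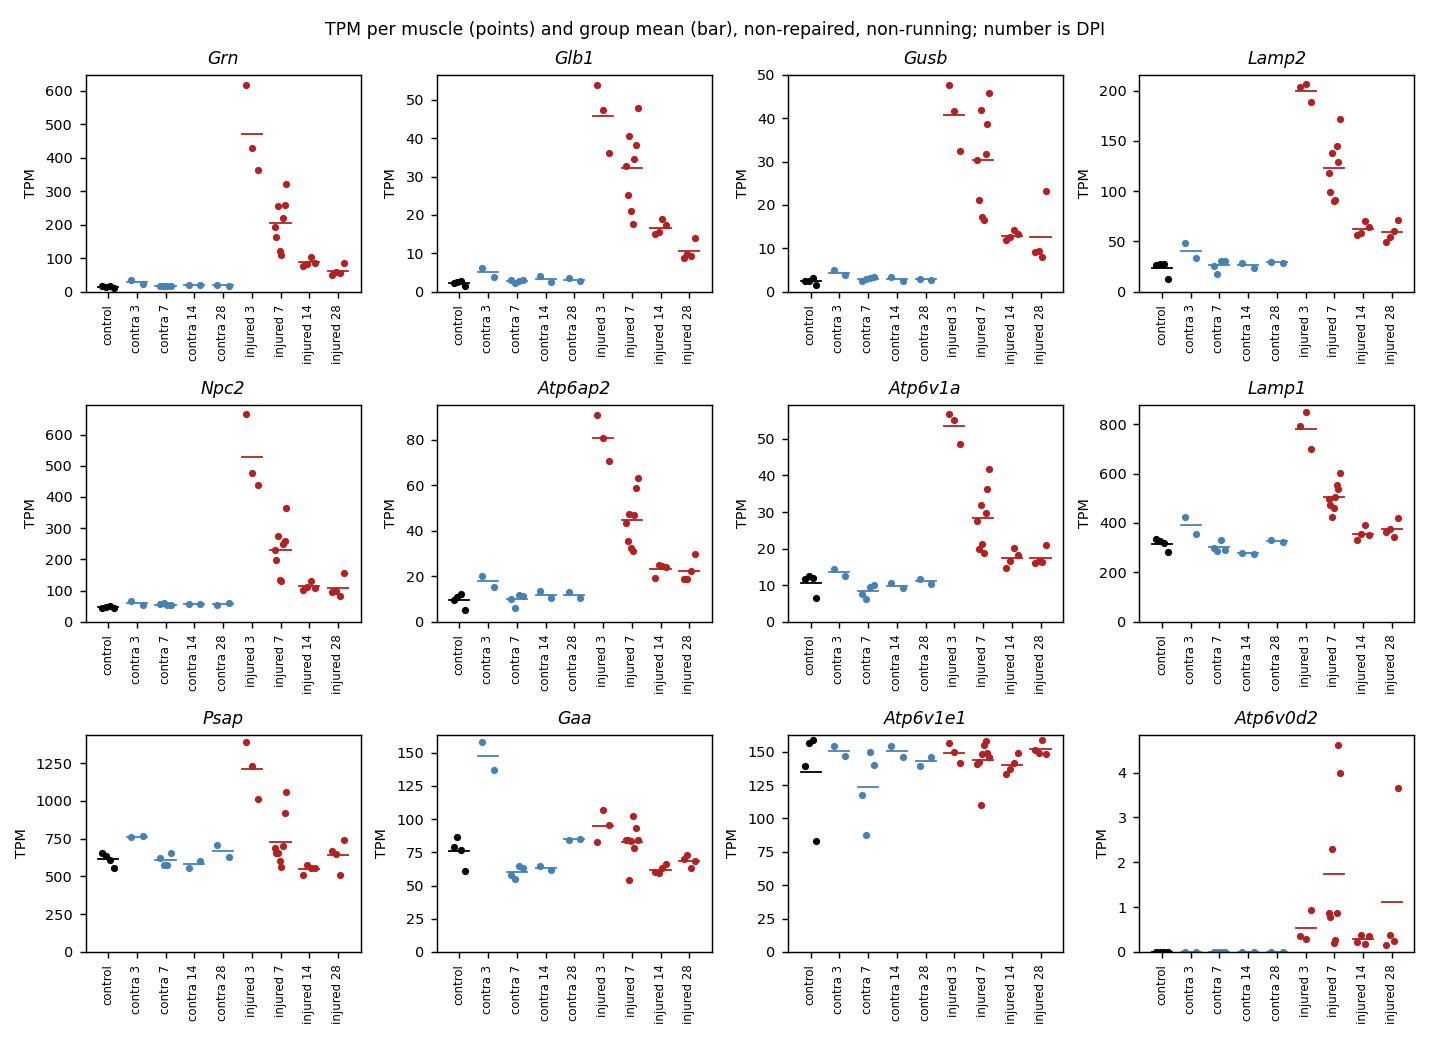
TPM (y axis, linear, starting at 0) of 12 members in control, contralateral and injured muscle of non-repaired, non-running rats, 1 point per muscle, with a bar at the group mean and the number giving the DPI. The injured muscles of Grn (363 to 618 TPM at 3 DPI) stood apart from control (11.4 to 15.98), whereas those of Gaa (median 95.7) lay below the contralateral muscles of 3 DPI.

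The soluble proteins without hydrolase activity held both the largest change and the most abundant transcript of the set. Grn, the precursor progranulin, which is taken into lysosomes and cut into granulins, was at 11.4, 14.0, 15.4 and 15.98 TPM in control and 22.3 and 34.1 in contralateral muscle at 3 DPI. Injured muscles held 363, 430 and 618 TPM of Grn at 3 DPI, a lowest, median and highest of 109, 207 and 322 at 7 DPI, 75.4, 82.8, 86.03 and 103.2 at 14 DPI, and 50.8, 54.0, 58.0 and 85.6 at 28 DPI. At 28 DPI the lowest injured muscle was still above every control and contralateral muscle of this arm. Grn differed from control by 4.93 (SE 0.255, adjusted p = 2.23e-31) at 3 DPI, 3.68 (SE 0.205, adjusted p = 1.31e-29) at 7 DPI, 2.53 at 14 DPI and 2.03 at 28 DPI. From contralateral muscle the differences of Grn were 4.004 (SE 0.305, adjusted p = 1.39e-20), 3.42 (SE 0.205, adjusted p = 2.26e-27), 2.09 and 1.66. The mean of 470.1 ± 132.1 TPM (SD, n = 3) at 3 DPI was 33.1 times that of control (14.2 ± 2.03, SD, n = 4). At 28 DPI the mean was 4.37 times that of control, both ratios on TPM. With size factors the log2 difference of Grn from control was 3.82, 2.63, 1.875 and 1.39 at 3, 7, 14 and 28 DPI. Each was smaller than on TPM.

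Npc2, which hands cholesterol to Npc1, was at 42.8, 44.1, 46.7 and 49.9 TPM in control, 54.3 and 67.6 in contralateral muscle and 439, 477 and 665 in injured muscle at 3 DPI. At 7 DPI the lowest, median and highest injured values were 130, 241 and 366 TPM, and at 28 DPI the range was 82.03 to 157. Injured and control muscles did not overlap. Npc2 differed from control by 3.47 (SE 0.216, adjusted p = 1.53e-26) at 3 DPI and 2.23 (SE 0.173, adjusted p = 4.33e-21) at 7 DPI, and from contralateral muscle by 3.08 (SE 0.258, adjusted p = 1.70e-18) and 1.96 (SE 0.173, adjusted p = 3.49e-18). Npc1 and Npc2 act in the same export step, and at 3 DPI both were called higher than both references on TPM. With size factors Npc2 kept those calls at 3 DPI and Npc1 did not, at 0.72 from control and 0.60 from contralateral muscle. The differences from contralateral muscle at 7 DPI went from 1.10 to 0.09 for Npc1 and from 1.96 to 0.88 for Npc2, neither then called. Size factors also ended the calls of Npc2 against control at 14 and 28 DPI, at 0.60 and 0.51.

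Psap, the precursor of the saposins that present lipids to hydrolases, was the most abundant of the 33 in control, at 554, 610, 637 and 653 TPM. It was at 760 and 767 in contralateral muscle and 1010, 1232 and 1392 in injured muscle at 3 DPI, and the 3 injured muscles were the highest. Its difference of 0.97 (SE 0.135, adjusted p = 4.11e-10) from control and 0.65 (SE 0.161, adjusted p = 0.000216) from contralateral muscle stayed under the fold limit. At 7 DPI Psap differed from control by 0.22 (SE 0.108, adjusted p = 0.0484) and from contralateral muscle by 0.23 (SE 0.108, adjusted p = 0.0375). With size factors the direction turned, to -0.87 (adjusted p = 1.27e-10) from control and -0.86 (adjusted p = 1.95e-10) from contralateral muscle at 7 DPI, and Psap stood at -0.18 from control at 3 DPI (limma, Benjamini-Hochberg).

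**Figure D4:**
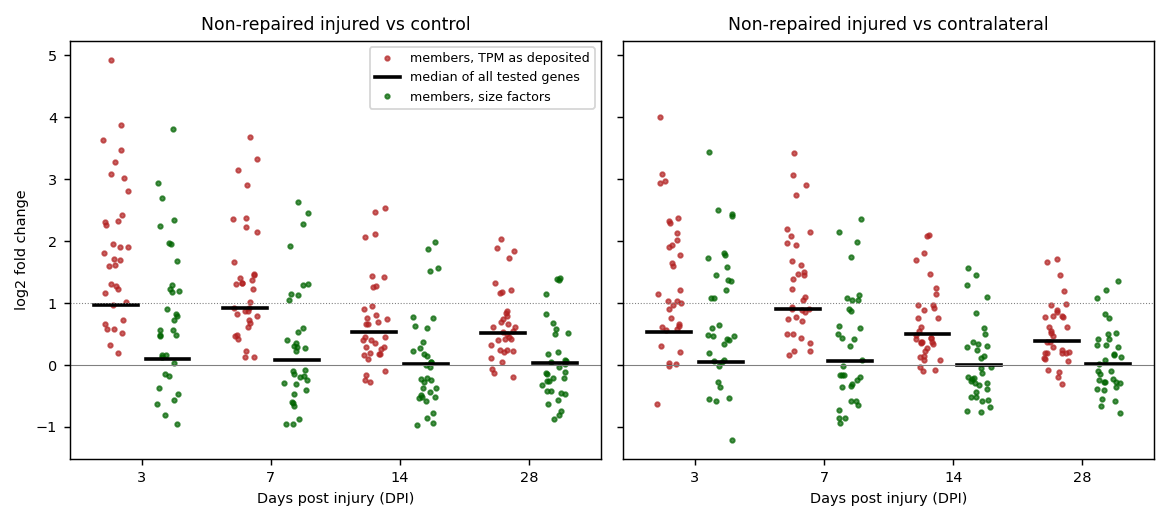
Log2 fold change of the 33 genes by DPI against control (left) and contralateral muscle (right), 1 point per gene, on TPM (red) and after size factors (green), with a black bar at the median of all tested genes. Against control at 3 DPI that median was 0.96 on TPM and 0.09 with size factors, where 8 of the 33 genes lay below 0.

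Other lysosomal genes, kept in fixed lists, were read beside the 33. The lists were chosen with earlier results of these data known. Of 21 further hydrolases and activators tested, 20, 18, 10 and 10 were called higher than control at 3, 7, 14 and 28 DPI, and 16, 16, 11 and 6 than contralateral muscle. At 3 DPI the largest difference from control was that of Gm2a, the activator protein of Hexa, at 4.82, and the smallest that of Smpd1, acid sphingomyelinase, at 0.22. Of 14 further membrane proteins 10, 8, 4 and 4 were called higher than control, from Laptm5, a protein of blood cells, at 5.69 to Abcb9, a peptide transporter, which was called lower at -1.40. Of 7 further pump genes tested 2, 1, 1 and 1 were called higher than control, Tcirg1 having the largest difference at 3 DPI (3.55) and Atp6v0e2 the smallest (0.09). Of 16 genes for delivery to and control of lysosomes 5, 3, 1 and 1 were called higher, with M6pr, a receptor that brings hydrolases to the lysosome, at 2.42 and Tfeb at -0.22 (adjusted p = 0.0905) at 3 DPI. Of all tested genes 48.3%, 45.6%, 25% and 21.1% were called higher than control on these days, and 32.3%, 45.3%, 20.9% and 13.1% than contralateral muscle. With size factors 13, 11, 4 and 3 of the further hydrolases and 6, 4, 3 and 3 of the further membrane proteins were called higher than control. Of 5 further pump genes 1, 1, 0 and 0 were called higher, and of the delivery genes 1, 0, 0 and 0. Under that scaling 24.5%, 21.9%, 15.8% and 11.5% of all genes were. Called lower were 4 and 5 of 16 delivery genes at 3 and 7 DPI. So were 1 further pump gene at 3 DPI and 1 further membrane protein at each of 3, 7 and 28 DPI. Of all genes 16.9%, 14.2%, 5.9% and 3.17% were called lower. Against contralateral muscle the further hydrolases then gave 11, 7, 4 and 3 called higher and the further membrane proteins 5, 4, 2 and 1. The further pump genes gave 1, 1, 0 and 0 and the delivery genes 1, 0, 0 and 0. Of all genes 20.7%, 18.7%, 10.5% and 7.22% were called higher. Called lower were 2, 1, 0 and 0 membrane proteins, 1, 0, 0 and 0 pump genes and 1, 1, 0 and 0 delivery genes. Of all genes 13.5%, 12.9%, 3.79% and 1.51% were.

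Contralateral muscle was not called different from control for any of the 33 genes, against 6.43%, 0.803%, 0.715% and 0.185% of all genes called at 3, 7, 14 and 28 DPI. On the adjusted p alone 7.05%, 2.65% and 0.415% of all genes passed at 7, 14 and 28 DPI and 2, 0 and 0 members. In limma 25, 6, 3 and 3 members had an unadjusted p under 0.05, as did 60.4%, 19.8%, 14.7% and 11.6% of all genes. At 3 DPI 22 members passed the adjusted p without the fold limit, all higher, as did 54.1% of all genes, and in 27 members both contralateral muscles were above all 4 control muscles (60.2% of all genes). On TPM, and not as a ranking for the other scaling, Gaa had the largest of these differences at 0.96 (adjusted p = 6.50e-07). Grn followed at 0.92 and Man2b1 at 0.91. The median of all genes in that comparison was 0.43 and that of the members 0.62, and with size factors these were 0.02 and 0.07, with 2.81% of all genes and 0 members called. Of the 17 macrophage markers 15 were called higher than control in these contralateral muscles, and their part in the lysosomal differences was not tested. These values rest on 2 contralateral muscles: without the one of rat 17, 7 members were called, and without control replicate 2 or 3, 2 were.

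Over time in non-repaired injured muscle more members were lower at the later day of each neighbouring pair up to 14 DPI, most by less than the fold limit. From 3 to 7 DPI 4 members were called lower (12.1%, all genes 5.35%): Grn and Npc2 (both -1.24), Atp6v1b2 (-1.03) and Lipa (-1.001). In all, 22 members passed the adjusted p alone, as did 38.7% of all genes, each of those members lower, and the median difference was -0.50 beside -0.06 over all genes. From 7 to 14 DPI Grn (-1.15) and Gusb (-1.09) were called lower (6.06% of members, 6.1% of all genes), 31 members passed the adjusted p alone, as did 71% of all genes, and the median was -0.66 beside -0.40. From 14 to 28 DPI 0 members were called in limma, 2 had an unadjusted p under 0.05 (13.8% of all genes) and 0.459% of all genes were called. With size factors 2 members were called lower from 3 to 7 DPI (4.52% of all genes) and 0 from 7 to 14 DPI (1.66% of all genes), and of all genes called from 7 to 14 DPI 60.9% were then higher, against 10.6% on TPM. The first of these counts went to 2 without rat 10 at 3 DPI or without rat TS5.106, TS5.125 or TS5.126 at 7 DPI, and the second to 4 without rat TS5.125 and to 1 without rat 20 at 7 DPI.

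MMG repair was read first within its own animals. MMG-repaired injured muscle against MMG contralateral muscle had 20 members called higher at 3 DPI (60.6%, all genes 37.2%), followed by 18 (54.5%, all genes 42.9%), 11 (33.3%, all genes 25.6%) and 7 (21.2%, all genes 18.8%) on the later days. None was called lower, where 6.8%, 3.35%, 0.53% and 0.3% of all genes were, and 29, 30, 23 and 21 members passed the adjusted p alone, as did 78.8%, 88.5%, 69.2% and 62.5% of all genes. With size factors the counts were 14, 10, 4 and 5, against 21.7%, 21.2%, 13.1% and 9.64% of all genes, and 1 member was called lower at 3 DPI (15.8% of all genes). Without Atp6v0d2 the counts at 7 and 28 DPI were 17 and 6 on TPM and 9 and 4 with size factors. The members with the largest differences were Grn (4.22, 3.81, 2.30 and 1.88), Glb1 (3.26, 3.19, 2.04 and 1.73) and Gusb (3.33, 3.02, 1.96 and 1.80). Grn ran from 493 to 667 TPM in the 7 injured muscles at 3 DPI with a median of 537, and from 46.8 to 94.3 with a median of 68.4 at 28 DPI, against 15.8 to 30.7 in the MMG contralateral muscles of all days. The 2 ranges did not overlap.

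Compared directly, MMG-repaired and non-repaired injured muscle did not differ by a call in any of the 33 genes at 3, 7, 14 or 28 DPI, where 0.00883%, 0.0883%, 0.0265% and 0% of all genes were called. In limma 1, 18, 0 and 0 members had an unadjusted p under 0.05, as did 17.3%, 27%, 5.23% and 1.24% of all genes. At 7 DPI 7 members passed the adjusted p alone (8.19% of all genes), each higher with MMG and none past the fold limit. They were Npc2 (0.60, SE 0.142, adjusted p = 0.00565), Grn (0.60, SE 0.167, adjusted p = 0.0174), Lipa (0.51), Atp6v1a (0.41), Lamp2 (0.37), Atp6v1b2 (0.34) and Asah1 (0.32). The 8 muscles of each group overlapped for Npc2, at 242 to 493 TPM with MMG and a median of 329, against 130 to 366 and a median of 241 without. The macrophage markers summed to 3864 to 8116 TPM with MMG and 1464 to 5783 without at 7 DPI, and their part in these differences was not tested. The difference of the injury effect between the repair groups was tested as well: 0 members and 0 of all genes were called at each day, and 0, 4, 0 and 0 members had an unadjusted p under 0.05 in limma, as did 2.09%, 11.5%, 0.883% and 0.556% of all genes.

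Running rats without repair were compared with their own contralateral muscles at 3, 7 and 14 DPI. Of the members, 15 were called higher at 3 DPI (45.5%, all genes 33.7%), then 17 (51.5%, all genes 39.9%) and 12 (36.4%, all genes 25.7%). After size factors 13, 9 and 4 were called higher and 2, 1 and 0 lower, against 21.6%, 20.8% and 12.2% of all genes higher and 15.3%, 13.6% and 6.38% lower. Without Atp6v0d2 16 were called at 7 DPI on TPM and 8 with size factors. On the adjusted p alone 28, 29 and 25 passed, as did 77.3%, 79.1% and 70.3% of all genes. Gaa was called lower at 3 DPI (-1.08, adjusted p = 1.31e-11, with 6.48%, 3.2% and 0.671% of all genes called lower on the 3 days), at 70.7 to 96.8 TPM in the 8 injured muscles with a median of 87.3, against 170 and 185 in the 2 contralateral muscles. Injured muscle lay below contralateral muscle for Gaa at 3 DPI in the MMG group too (66.5 to 109.5 TPM against 129.2 and 166.3, difference -0.67, under the fold limit). Gaa in the contralateral muscles of all 4 arms at 3 DPI was thus above the 60.7 to 86.5 TPM of control, and at 7 DPI it was at 55.2 to 64.4 TPM in non-repaired and 62.7 to 74.2 in MMG contralateral muscle.

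Running and non-running injured muscle without repair did not differ by a call in any member, against 0.0441%, 0%, 0.0177% and 0.0177% of all genes called at 3, 7, 14 and 28 DPI. In limma 1, 13, 3 and 0 members had an unadjusted p under 0.05, as did 14.5%, 21.3%, 9.96% and 3.79% of all genes. At 7 DPI the largest difference was that of Grn, 0.58 (SE 0.205, adjusted p = 0.139), with 206 to 500 TPM in 4 running rats and 109 to 322 in 8 others. Those others were not alike: rats TS5.105, TS5.106, TS5.125 and TS5.126 had Lamp2 at 15.3% to 19.2% of its pair with Lamp1. The share was 19.3% to 24.5% in non-running rats 11, 12, 19 and 20, and 19.8% to 25.9% in running rats 3, 4, 31 and 32. The part of this spread in the running comparison was not tested. The difference of the injury effect between running and non-running rats was called for 0 members at 3, 7 and 14 DPI (0.0971%, 0.00883% and 0% of all genes), with 3, 1 and 0 members and 10.8%, 8.67% and 1.2% of all genes at an unadjusted p under 0.05. It was largest in size for Atp6v1f at 3 DPI, at -0.62 (SE 0.186, adjusted p = 0.113).

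**Figure D5:**
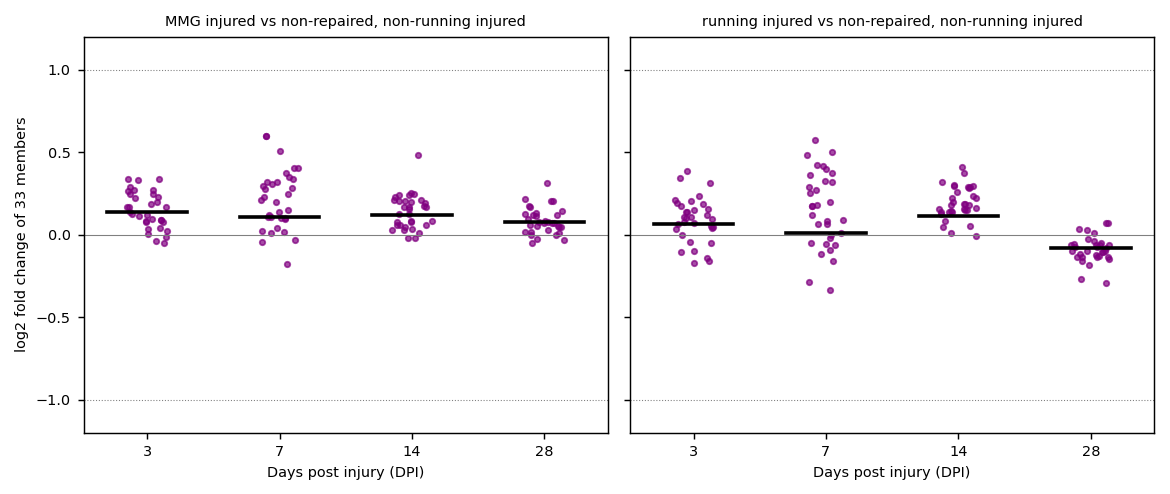
Log2 fold change of the 33 genes by DPI in injured muscle with MMG (left) or running (right) against non-repaired, non-running injured muscle, 1 point per gene, with a black bar at the median of all tested genes and dotted lines at the fold limit of 1. All points lay within the limit, from -0.18 to 0.60 with MMG and -0.33 to 0.58 with running at 7 DPI.

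Rats with both MMG and running were measured without a test of their own. Their summed member TPM was 6817 to 7968 at 3 DPI, 4650 to 6069 at 7 DPI, 2979 to 3822 at 14 DPI and 3030 to 3596 at 28 DPI, against 2426 to 3550 in their contralateral muscles. Atp6v0d2 reached its highest value of any muscle there, 10.4 TPM in 1 of the 2 muscles at 28 DPI, the other holding 0.71. In the contralateral muscles of all arms Atp6v0d2 was above 0 in 2, at 0.03 TPM in an MMG muscle at 3 DPI and 0.07 TPM in a running, non-repaired muscle at 14 DPI. Lamp2 made up 19.5% to 23.98% of the pair with Lamp1 in the MMG and running group at 3 DPI, as against 18.2% to 23.5% in the MMG and the running groups.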

How the data were processed

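RNA from whole TA muscles of the VML time course was sequenced from TruSeq libraries of total RNA. The authors pseudo-aligned the reads with kallisto to rat build 6.0 with Genbank annotation and deposited TPM per symbol. The values hold no read counts, and the paper states depth only as an average over libraries. The depth of each library is therefore unknown, and no interval or floor from counts is given. The submitters' processing notes name kallisto and DESeq without versions.

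The 33 members and all gene lists were chosen with earlier results of these data known. Of 138 libraries, 13 with fewer than 7000 symbols above 1 TPM (901 to 5712, against 7866 to 10948 in the 125 kept, 12 of the 13 with more than 70% ribosomal RNA) were dropped, with which 2 contralateral muscles were lost. Another 9 libraries whose labels contradict each other were put in no group, and 1 incomplete table entry was left out. No 2 libraries held identical values. Libraries of 1 muscle were averaged. The replicate is the muscle. The 4 control muscles are of 2 rats, so p-values treat the legs of a rat as separate.

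Symbols with a group mean above 1 TPM in at least 1 group (11328 of 16181) were tested on log2(TPM + 1), a scale that understates changes of low genes, with limma 3.58.1 (trend) in R 4.3.3, in 1 model of 31 groups and 114 muscles (83 residual degrees of freedom). The study's own test needs read counts, and its limits were kept: Benjamini-Hochberg adjusted p under 0.05 and a log2 difference beyond 1. The fit was tested on simulated data. Python 3.11.15, numpy 2.4.6, pandas 2.3.3 and matplotlib 3.10.9 served for tables and figures.

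All 33 members are accounted for. In each comparison the rule named the 2 members of each role with the largest and the 1 with the smallest difference, with full statistics printed for injured against control and contralateral muscle at 3 and 7 DPI and the difference alone elsewhere. Other members were named for their role after their values were seen. Alternatives were size factors, a pseudocount of 0.1, no filter, all libraries, each library as a replicate, control averaged per rat, the compared groups alone, the adjusted p alone, a block on the rat and each muscle left out. Legs of 1 rat are paired by the labels: over 34 such pairs the mean correlation of deviations was 0.094 (-0.068 to 0.358), against 0 between rats.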

Additional observations from a re-analysis of the deposited data

Results flagged for a closer look

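Within groups of 4 to 10 muscles, 44 of 525 sets of 1 gene in 1 group (8.38%) held a muscle far from the others by Dixon's test, 36 high and 8 low, where chance alone marks about 1 in 20 sets. They fell on 17 muscles. Rat TS5.135 (MMG, 14 DPI) was high for Atp6v0e1 (87.2 TPM), Hexa (84.7), Gla (10.6), Glb1 (24.6), Asah1 (45.7), Man2b1 (41.3), Npc2 (179) and Grn (138.5), and its macrophage marker sum was 1572 TPM against 1012 to 1050 in the others, with a muscle fibre sum of 156600 TPM against 163500 to 175800. Rat 31 (running, 7 DPI) was high for Atp6v1b2 (79.9 TPM), Gla (22.5), Glb1 (73.7), Gusb (65.4), Lipa (65.3), Man2b1 (111) and Npc2 (441), with a macrophage sum of 7285 TPM against 3082 to 4815 and a fibre sum of 43490 TPM against 87080 to 97060. Rat 23 (MMG, 7 DPI) was high for Atp6v0b (168 TPM), Atp6v0c (437), Atp6v0d2 (5.68), Atp6v1b2 (105.9) and Psap (1122), with a macrophage sum of 8116 TPM against 3864 to 5742 and a fibre sum of 48880 TPM against 62050 to 103800. Rat 82 (non-repaired, 28 DPI) was high for Atp6v0d2 (3.66 TPM), Atp6v1a (20.9), Gusb (23.3) and Lipa (33.5), with a macrophage sum of 1748 TPM against 519 to 687 and a fibre sum of 198200 TPM against 167900 to 182300. Rat 76 (MMG, 28 DPI) was high for Atp6v0a1 (37.8 TPM), Atp6v0d1 (98.5), Atp6v1c1 (56.0) and Tpp1 (61.4), with a macrophage sum of 1317 TPM against 710 to 1010 and a fibre sum of 133200 TPM against 184800 to 191700. The part of macrophage and fibre content in these values was not tested.

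The right muscle of control rat 38 was low for Atp6v1a (6.38 TPM), Atp6v1h (13.4) and Lamp2 (12.8), and its muscle fibre marker sum was 270300 TPM against 207300 to 218400 in the other controls. Rat TS5.134 (running, 14 DPI) was high for Atp6v0d1 (111 TPM) and Mcoln1 (20.98), with a macrophage sum of 1909 TPM, within the 1108 to 2113 of the others, and a fibre sum of 115100 TPM, below the 140100 to 176600 of the others. Rat 11 (non-repaired, 7 DPI) was low for Atp6v1e1 (110 TPM) and Atp6v1f (145). Single high values were Atp6v0e1 in contralateral muscle of rat TS5.127 (MMG, 7 DPI, 42.7 TPM) and in rat TS5.137 (non-repaired, 14 DPI, 66.2), Npc1 in rat TS5.136 (MMG and running, 14 DPI, 16.95), Mcoln1 in contralateral muscle of rat 16 (MMG, 7 DPI, 21.4), Atp6v1f in rat 81 (non-repaired, 28 DPI, 161) and Atp6v0d2 in rat 26 (MMG and running, 3 DPI, 1.16). Single low values were Lipa in rat TS5.129 (non-repaired, 14 DPI, 17.8 TPM), Hexa in the left muscle of control rat 37 (17.9) and Gaa in rat TS5.138 (running, 14 DPI, 50.2). Of the 12 muscles with high values the macrophage sum was the highest of its group in 8, within the range of the others in 3 and the lowest in 1, rat 16 (131.6 TPM against 133.9 to 201.2). Of the 5 with low values it was the lowest in 2 and within the range in 3.

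The 9 libraries put in no group each held more Grn than the highest control muscle (15.98 TPM). In 8 of them, from running rats 77, 78, 79 and 80 at 28 DPI, title and label name opposite muscles. Those titled injured held 16.96, 16.15, 16.14 and 19.7 TPM of Grn in that order of rats, and those titled control 47.0, 48.2, 54.1 and 69.3, with macrophage marker sums of 132.7, 110, 126.4 and 150.4 TPM and of 557, 620, 770 and 1005 TPM. The last, a contralateral library of rat 11 whose day label departs from the other libraries of that rat, held 23.9 TPM of Grn.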

How the results depend on the processing

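Counts of members called stayed within 1.5 times with a block on the rat (which pairs the 2 legs), each library as a replicate, the compared groups alone, no filter and control averaged per rat. Over all comparisons the block changed 3 calls, each at the fold limit: Lamp1 against contralateral muscle at 3 DPI (0.999 to 1.001) and Atp6ap2 with MMG at 28 DPI became called, and Atp6v1h with MMG at 14 DPI did not stay called. With size factors, counts against control at 3, 7, 14 and 28 DPI were 12, 9, 4 and 4. Against contralateral muscle at 7 and 14 DPI they were 8 and 4, with MMG 10 and 4 and with running 10 and 4, and from 3 to 7 and 7 to 14 DPI 2 and 0. Laptm4a against control turned to -0.14 and -0.077 at 3 and 7 DPI, and Atp6v1c1 against contralateral muscle to -0.011 at 7 DPI, by the scale alone. On the adjusted p alone, counts against control at 7, 14 and 28 DPI were 31, 24 and 26, against contralateral muscle at 3, 7, 14 and 28 DPI 28, 32, 21 and 17, with MMG at 7, 14 and 28 DPI 30, 23 and 21, with running at 3, 7 and 14 DPI 28, 29 and 25. They were 7 for MMG against non-repaired muscle at 7 DPI, 22 and 2 for contralateral muscle against control at 3 and 7 DPI, and 22 and 31 from 3 to 7 and 7 to 14 DPI. With all libraries kept, counts were 30 against contralateral muscle at 7 DPI (72.2% of all genes called) and 7 with MMG at 14 DPI (23.6%). For contralateral muscle against control at 7 DPI the count was 24, all lower in contralateral muscle, where 36.9% of all genes were called. From 3 to 7 and 7 to 14 DPI the counts were 9, all lower, and 0, beside 10.1% and 2.55% of all genes. The cause of these shifts was not tested. A pseudocount of 0.1 gave 2 for contralateral muscle against control at 3 DPI, where 19.3% of all genes were called.

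Leaving out each of 92 muscles in turn gave 24 to 26, 16 to 18, 8 to 10 and 7 to 8 against control at 3, 7, 14 and 28 DPI, and 14 to 20, 17 to 19, 7 to 10 and 4 to 6 against contralateral muscle. It gave 20 to 20, 18 to 19, 10 to 12 and 6 to 9 with MMG, and 16 to 18, 16 to 19 and 11 to 12 with running. It gave 0 to 7 for contralateral muscle against control at 3 DPI, 2 to 6 from 3 to 7 DPI and 1 to 4 from 7 to 14 DPI, and 0 to 0 in the remaining comparisons. Groups of 2 contralateral muscles leave a lone sample that is assumed to vary like the other groups. Without read counts, precision at low TPM, as for Atp6v0d2, cannot be judged.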
